A study of Arabidopsis thaliana with 6 samples.

Results

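The minor antenna of photosystem II and its partner PSBS were followed through 6 nuclear genes, *LHCB4.1* (AT5G01530), *LHCB4.2* (AT3G08940), *LHCB4.3* (AT2G40100), *LHCB5* (AT4G10340), *LHCB6* (AT1G15820) and *PSBS* (AT1G44575). They were taken by gene identifier from a table of 26764 Arabidopsis genes, and all 6 passed the filter on low counts that left 17453 genes for testing. RNA-seq compared *3h1* with wild-type (wt) seedlings, with 3 libraries per genotype. The *3h1* line carries T-DNA insertions in the linker histone genes *H1.1*, *H1.2* and *H1.3* in the Col-0 ecotype, and wt is Col-0. In its phenotype and nucleosome figures the paper describes wt as wild-type segregants, and its RNA-seq methods do not say whether this holds there. The *h1.3* allele came from Ler and was backcrossed to Col-0, which left some Ler sequence, mainly near *H1.3*. *LHCB4.3* lies on the same chromosome as *H1.3*, 8.9 Mb away. All seedlings were 3 weeks old, grew on agar under long days and were pooled for each replicate, and RNA came from whole seedlings rather than from leaves. The labels give no harvest time within the day. Because whole seedlings were extracted, fewer leaf cells and less of a transcript in each leaf cell cannot be told apart.

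Photosystem II splits water in the thylakoid membrane of the chloroplast, and its core is fed with excitation energy by chlorophyll a/b-binding antenna proteins. The abundant ones form LHCII trimers (encoded by *LHCB1*, *LHCB2* and *LHCB3*), whereas the minor antenna proteins are monomers that sit between the trimers and the core and hand energy on. CP29 is encoded by the *LHCB4* genes, CP26 by *LHCB5* and CP24 by *LHCB6*, and CP24 docks to CP29 where a trimer is held. PSBS belongs to the same protein superfamily but is not a light-harvesting subunit. It senses the acid lumen that builds up in strong light and switches on the rapid dissipation of energy as heat known as non-photochemical quenching. All of these proteins are made in the cytosol and imported into the chloroplast.

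The genes are spread over the 5 chromosomes of the nuclear genome (TAIR10.1 coordinates). *LHCB4.1* lies on chromosome 5 from 208866 to 210548, *LHCB4.2* on chromosome 3 from 2717557 to 2718923 and *LHCB4.3* on chromosome 2 from 16745628 to 16747424. *LHCB5* lies on chromosome 4 from 6408007 to 6409849. *LHCB6* and *PSBS* are both on chromosome 1, at 5446462 to 5447880 and at 16870221 to 16873427, with *LHCB6* on the minus strand and the others on the plus strand. *LHCB4.1*, *LHCB5* and *LHCB6* have 1 annotated mRNA each, *LHCB4.2* and *LHCB4.3* have 2, and *PSBS* has 3.

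The CP29 genes are alike enough that their reads deserve a look at the sequence level. Over the coding sequence, *LHCB4.1* and *LHCB4.2* were identical at 708 of 864 aligned bases (81.9%), *LHCB4.1* and *LHCB4.3* at 560 of 816 (68.6%), and *LHCB4.2* and *LHCB4.3* at 561 of 813 (69.0%). A stretch is shown for the 3 paralogs because it holds the longest run of bases common to *LHCB4.1* and *LHCB4.2*. Capitals mark bases that differ from *LHCB4.1*, and the letters are those of the reference coding strand, 5′ to 3′.

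LHCB4.1: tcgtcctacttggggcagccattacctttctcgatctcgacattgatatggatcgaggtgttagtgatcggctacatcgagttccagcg

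LHCB4.2: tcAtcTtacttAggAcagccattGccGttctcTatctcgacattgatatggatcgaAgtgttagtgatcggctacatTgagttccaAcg

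LHCB4.3: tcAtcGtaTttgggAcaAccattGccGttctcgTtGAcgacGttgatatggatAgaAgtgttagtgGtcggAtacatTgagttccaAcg

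Within these 89 bases *LHCB4.2* differed from *LHCB4.1* at 10 positions and *LHCB4.3* at 17. The longest run without a difference was 23 bases between *LHCB4.1* and *LHCB4.2* over the whole coding sequence, and 21 bases between *LHCB4.1* and *LHCB4.3*. The deposited counts divide a read that maps equally well to several loci, which leaves a fractional count. *LHCB4.2* had a fractional count in all 6 libraries, *LHCB5* and *PSBS* in 5, *LHCB4.1* in 4, *LHCB6* in 2 and *LHCB4.3* in 1. Outside the CP29 genes, the closest match to a member was between *LHCB5* and *LHCB3*, 101 aligned bases at 78.2% identity. No similar locus was found for *LHCB6* or *PSBS*, although both had fractional counts. A fractional count alone therefore does not show that reads were shared between paralogs. Overlapping genes on the opposite strand were a further place where reads can be shared, since the use of strand in counting is not given in the sources used here. *LHCB4.2* overlaps AT3G08943 by 44 bases, and that gene had 123, 128 and 127 counts in the *3h1* libraries and 107, 85.2 and 96.8 in the wt libraries. *LHCB6* overlaps the non-coding RNA AT1G05207, with at most 8 counts in any library, and the end of AT1G15810, with between 26 and 50 counts. *LHCB6* itself had 5337 to 9204 counts.

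The 250 bases before an annotated start were read for each gene and searched on both strands for letters known from promoters of photosynthesis genes. For *PSBS* the start was that of the mRNA with the longest coding sequence, at 16871511, so that its window lies inside the annotated gene and the bases before the gene were not searched. The other starts are those of the genes. The letters were the G-box CACGTG, the I-box core GATAAG, the CCAATC element associated with GLK factors (which holds the CCAAT box), the CCA1-binding forms AAAAATCT and AACAATCT, and the evening element AAAATATCT. The promoters of *LHCB4.1* on chromosome 5 (chr5:208616-208865), *LHCB4.2* (chr3:2717307-2717556) and *LHCB6* (chr1:5447881-5448130, minus strand) are shown, since these had the lowest p values of the set and each held at least 1 of the motifs. Capitals mark the matches, on either strand.

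LHCB4.1: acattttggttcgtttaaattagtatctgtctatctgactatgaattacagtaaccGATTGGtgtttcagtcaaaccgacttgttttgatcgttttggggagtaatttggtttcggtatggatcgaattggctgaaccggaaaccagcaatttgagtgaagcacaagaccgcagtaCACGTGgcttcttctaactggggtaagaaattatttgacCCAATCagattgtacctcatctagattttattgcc

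LHCB4.2: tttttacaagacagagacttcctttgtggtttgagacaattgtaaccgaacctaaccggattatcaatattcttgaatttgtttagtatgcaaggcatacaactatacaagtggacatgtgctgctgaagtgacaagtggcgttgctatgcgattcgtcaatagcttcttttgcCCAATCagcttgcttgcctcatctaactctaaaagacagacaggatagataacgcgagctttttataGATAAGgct

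LHCB6: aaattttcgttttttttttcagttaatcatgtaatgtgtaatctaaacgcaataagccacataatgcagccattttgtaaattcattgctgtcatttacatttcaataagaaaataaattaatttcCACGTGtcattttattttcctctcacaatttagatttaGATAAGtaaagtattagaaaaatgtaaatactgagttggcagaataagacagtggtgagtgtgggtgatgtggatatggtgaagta

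*LHCB4.1* held a G-box at position -74 and CCAATC, read on either strand, at -194 and -35 from the annotated start. *LHCB4.2* held CCAATC at -76 and GATAAG at -9, and *LHCB6* held a G-box at -124 and GATAAG at -86. None of the letters searched was found in the windows of *LHCB4.3*, *LHCB5* or *PSBS*, and the CCA1-binding forms and the evening element were found in none of the 6. These motifs are common. Of 27443 windows of the same length, 6.5% held the G-box, 12.3% GATAAG, 10.2% CCAATC, 6.7% and 1.8% the CCA1-binding forms and 2.4% the evening element, so the matches are a description of the letters.

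The libraries held 5115676 to 6174881 counts in *3h1* and 4753812 to 5924967 in wt. Chloroplast genes took 52.2 to 54.5% of the count in *3h1* and 55.5 to 60.0% in wt, without overlap between the genotypes. Values below are counts scaled to library size after TMM normalization (CPM) unless stated otherwise, a scaling that takes the bulk of genes as equal between libraries. *3h1* replicates 1 and 3 stood apart in that 37.0 and 46.4% of their genes had fractional counts, against 22.3% in *3h1* replicate 2 and 20.5 to 27.7% in wt. As the check of the genotype, *H1.1* had 12.5, 19.4 and 17.9 CPM in *3h1* and 68.3, 103 and 70.8 CPM in wt, and *H1.2* 12.8, 14.2 and 13.2 CPM in *3h1* and 69.0, 87.2 and 85.2 CPM in wt. *H1.3* was not analysed here.

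After TMM normalization, transcripts of the 4 abundant minor antenna genes were lower in *3h1* than in wt in every library. *LHCB4.3* and *PSBS* overlapped between the genotypes. The sum of the 6 genes was 3453, 3400 and 3738 CPM in *3h1*, against 4970, 5197 and 4642 CPM in wt. *LHCB4.2* stood lowest relative to wt, by 41.0%, followed by *LHCB6*, *LHCB4.1* and *LHCB5*. None of the 6 genes passed the adjusted threshold of edgeR's quasi-likelihood test, so that 0 of 6 were called lower, against 0.0229% of all genes tested. At an unadjusted p value under 0.05, 4 of the 6 were lower, against 4.17% of all genes tested, and 0 of the 6 were higher, against 5.33%. The *3h1* libraries were all below the wt libraries for the same 4 genes, a pattern held by 7.5% of all genes tested. The median log2 fold change of the 6 genes was -0.44, beside 0.011 for all genes tested.

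**Figure D1:**
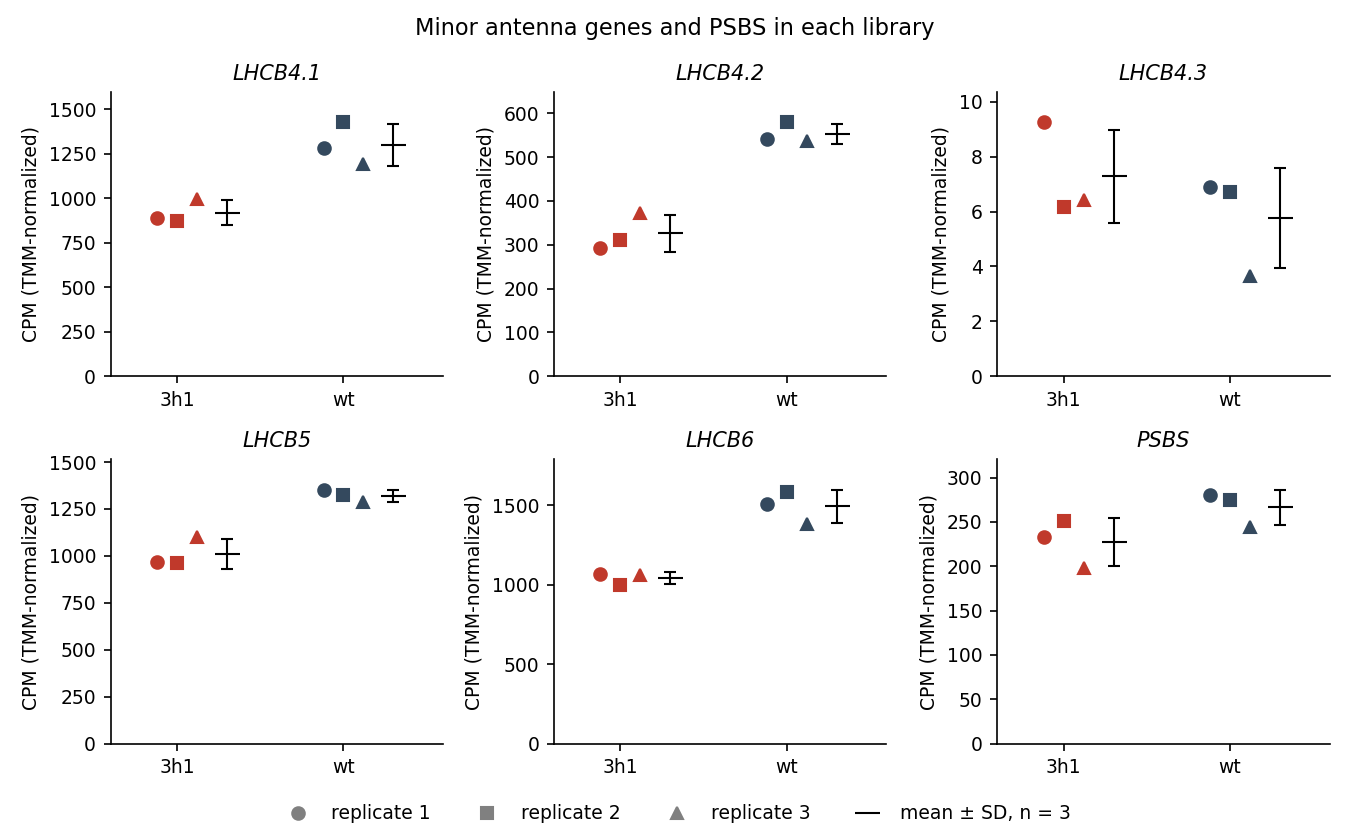
Expression level (CPM after TMM normalization, vertical axes from 0) of the 6 genes in each *3h1* (red, left) and wt (blue, right) library, with symbols for the replicate and bars for mean ± SD (n = 3 libraries). For *LHCB4.1*, *LHCB4.2*, *LHCB5* and *LHCB6* every *3h1* point lies below every wt point, whereas *LHCB4.3* and *PSBS* overlap.

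Among the genes of CP29, the monomer that links the core to the rest of the antenna, *LHCB4.2* had the lowest fold change. *LHCB4.2* had 292, 312 and 374 CPM in the *3h1* libraries and 542, 579 and 536 CPM in the wt libraries. The highest *3h1* value was 30.3% below the lowest wt value. The mean was 326 ± 42.6 CPM in *3h1* and 553 ± 23.4 CPM in wt (SD, n = 3 each). This made a log2 fold change of -0.76 (standard error 0.15, adjusted p = 0.197, edgeR's quasi-likelihood test). DESeq2, run on 26719 genes without that filter, put the log2 fold change at -0.82 and the adjusted p value at 0.000864. With no filter on low counts edgeR also put the log2 fold change at -0.82, with adjusted p = 0.138, and the adjusted p value ranged up to 0.671 over the other alternatives.

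*LHCB4.1*, the more abundant CP29 gene, had 886, 873 and 997 CPM in *3h1*, against 1279, 1425 and 1190 CPM in wt. *3h1* replicate 3 was the highest of its genotype and still below the lowest wt library. The mean was 919 ± 68.0 CPM in *3h1* and 1298 ± 119 CPM in wt (SD, n = 3 each). The log2 fold change came to -0.50 (standard error 0.15, adjusted p = 0.335, edgeR's quasi-likelihood test).

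*LHCB4.3*, the third CP29 gene, was rare. *LHCB4.3* had 61.6, 33 and 43 counts in *3h1* and 42, 27 and 18 counts in wt, or 9.25, 6.17 and 6.43 CPM in *3h1* and 6.90, 6.73 and 3.65 CPM in wt. The genotypes overlapped, with *3h1* below wt in 4 of the 9 pairs of libraries. The log2 fold change came to 0.34 (standard error 0.29, adjusted p = 0.753, edgeR's quasi-likelihood test), and it was 0.083 without wt replicate 3 and 0.13 without *3h1* replicate 1.

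*LHCB6* encodes CP24. *LHCB6* had 1066, 997 and 1059 CPM in *3h1*, against 1512, 1588 and 1383 CPM in wt, and the highest *3h1* library was 22.9% below the lowest wt library. The mean was 1041 ± 37.8 CPM in *3h1* and 1494 ± 104 CPM in wt (SD, n = 3 each). The log2 fold change came to -0.52 (standard error 0.15, adjusted p = 0.313, edgeR's quasi-likelihood test).

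*LHCB5*, the gene of CP26, had 967, 961 and 1103 CPM in *3h1* and 1349, 1324 and 1285 CPM in wt. The wt libraries lay close together, and *3h1* replicate 3 came nearest to them, 14.2% below the lowest. The log2 fold change came to -0.39 (standard error 0.15, adjusted p = 0.442, edgeR's quasi-likelihood test). Of the 4 genes that were lower at the unadjusted threshold, *LHCB5* was the only one to lose it when a library was left out. It was no longer past that threshold without *3h1* replicate 1, without wt replicate 1 or without wt replicate 3, while its log2 fold change was between -0.45 and -0.36 over the fits with a library left out. The calls of *LHCB4.1*, *LHCB4.2* and *LHCB6* at the unadjusted threshold held with any library left out.

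*PSBS*, the trigger of rapid quenching, was closer between the genotypes. *PSBS* had 233, 251 and 198 CPM in *3h1*, against 281, 275 and 244 CPM in wt, and *3h1* replicate 2 lay above wt replicate 3. The mean was 227 ± 26.7 CPM in *3h1* and 266 ± 19.7 CPM in wt (SD, n = 3 each). The log2 fold change came to -0.23 (standard error 0.15, adjusted p = 0.670, edgeR's quasi-likelihood test), and to -0.14 without *3h1* replicate 3 and -0.33 without *3h1* replicate 2. *3h1* was below wt in 8 of the 9 pairs of libraries.

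The size of these differences depended on how libraries were scaled. When the total count was used as library size, chloroplast reads included, the median log2 fold change of all genes tested moved to 0.23, and only *LHCB4.2* kept an unadjusted p value under 0.05, against 0.779% of all genes tested for lower and 13.1% for higher (log2 fold change -0.53, adjusted p = 0.216, edgeR's quasi-likelihood test). On that scale *LHCB4.1* had -0.27, *LHCB5* -0.16, *LHCB6* -0.30, *PSBS* -0.0094 and *LHCB4.3* 0.56. Relative to the median of all genes the values were -0.50, -0.76, 0.32, -0.39, -0.53 and -0.24 for *LHCB4.1*, *LHCB4.2*, *LHCB4.3*, *LHCB5*, *LHCB6* and *PSBS*, close to those under TMM. A change of library size shifts all genes nearly alike, so this closeness follows from the calculation and is no separate evidence. Under TMM, 56.2% of the genes with an unadjusted p value under 0.05 were higher in *3h1*, against 70.4% with the nuclear count and 94.4% with the total count as library size. With chloroplast and mitochondrial genes removed before normalization, *LHCB4.1* had -0.50, *LHCB4.2* -0.77, *LHCB5* -0.39 and *LHCB6* -0.53. All 4 were lower at the unadjusted threshold, beside 703 of 17149 genes tested. With the nuclear count as library size the 4 were also lower at that threshold, beside 471 of 17364 genes tested. *3h1* replicate 2 was also fitted alone against wt, because the other *3h1* libraries had fractional counts in a larger share of their genes. For the same 4 genes that fit gave log2 fold changes of -0.57 for *LHCB4.1*, -0.82 for *LHCB4.2*, -0.45 for *LHCB5* and -0.58 for *LHCB6*. This fit takes the lone library to vary like the wt libraries.

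**Figure D2:**
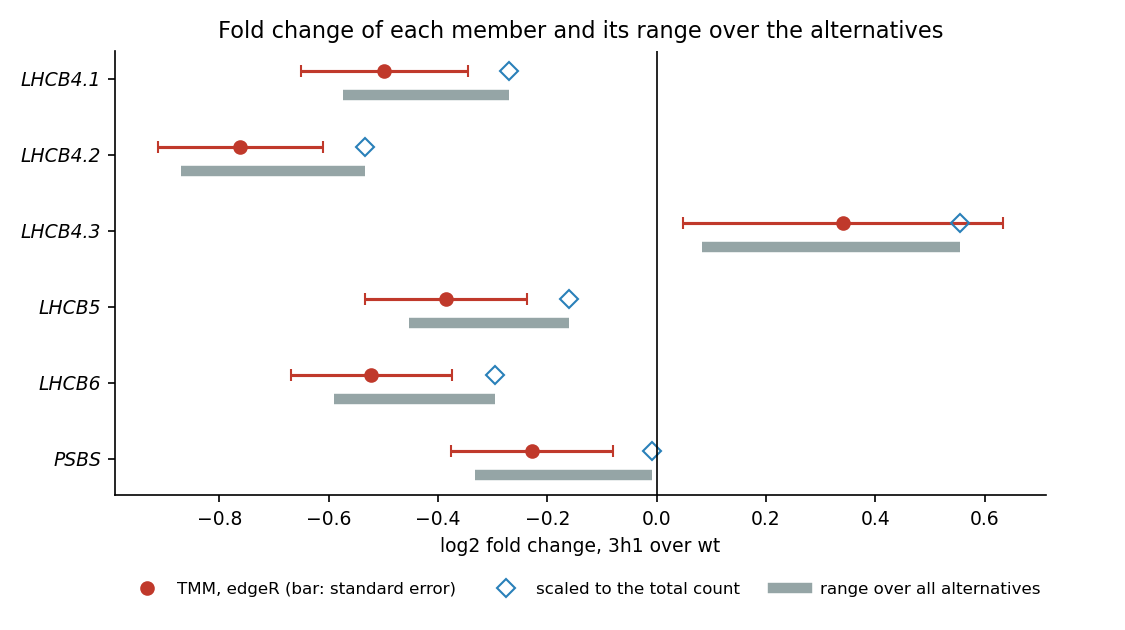
Log2 fold change of *3h1* over wt (horizontal axis) for each gene, with the edgeR estimate after TMM normalization (red, bar for the standard error), the estimate with the total count as library size (blue diamond) and the range over all 18 alternatives (grey). *LHCB4.2* stays at -0.53 or lower in all of them, and *PSBS* reaches -0.0094 when scaled to the total count.

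A ratio of 2 genes within a library does not depend on the scaling, and 5 such ratios of counts were compared. For CP29, *LHCB4.2* counts were 0.329, 0.357 and 0.375 of *LHCB4.1* counts in *3h1*, against 0.424, 0.407 and 0.450 in wt. The ratio was lower in *3h1* in all 9 pairs of libraries, a mean log2 difference of -0.27 (exact two-sided permutation test, p = 0.1, adjusted over the 5 ratios p = 0.25). With 3 libraries against 3, the smallest value that this exact test can give is p = 0.1. *LHCB4.3* counts were 0.0104, 0.00706 and 0.00645 of *LHCB4.1* counts in *3h1*, against 0.00539, 0.00472 and 0.00307 in wt. That ratio was higher in *3h1* in all 9 pairs, a log2 difference of 0.87 (exact permutation test, p = 0.1, adjusted p = 0.25), and rested on 18 to 61.6 counts of *LHCB4.3*. It was 0.66 without *3h1* replicate 1 and 0.63 without wt replicate 3.

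The log2 ratio of *LHCB6* to *LHCB5* was 0.14, 0.054 and -0.058 in *3h1*, against 0.16, 0.26 and 0.11 in wt, a log2 difference of -0.13 with overlapping genotypes (exact permutation test, p = 0.2, adjusted p = 0.25), which became -0.080 without *3h1* replicate 3. *PSBS* was 0.0723, 0.0797 and 0.0561 of the summed minor antenna genes in *3h1*, against 0.0599, 0.0558 and 0.0555 in wt. Replicates 1 and 2 of *3h1* lay above all wt libraries, and *3h1* replicate 3 lay among them, and the log2 difference was 0.27 (exact permutation test, p = 0.2, adjusted p = 0.25). It was 0.16 without *3h1* replicate 2 and 0.41 without *3h1* replicate 3.

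**Figure D3:**
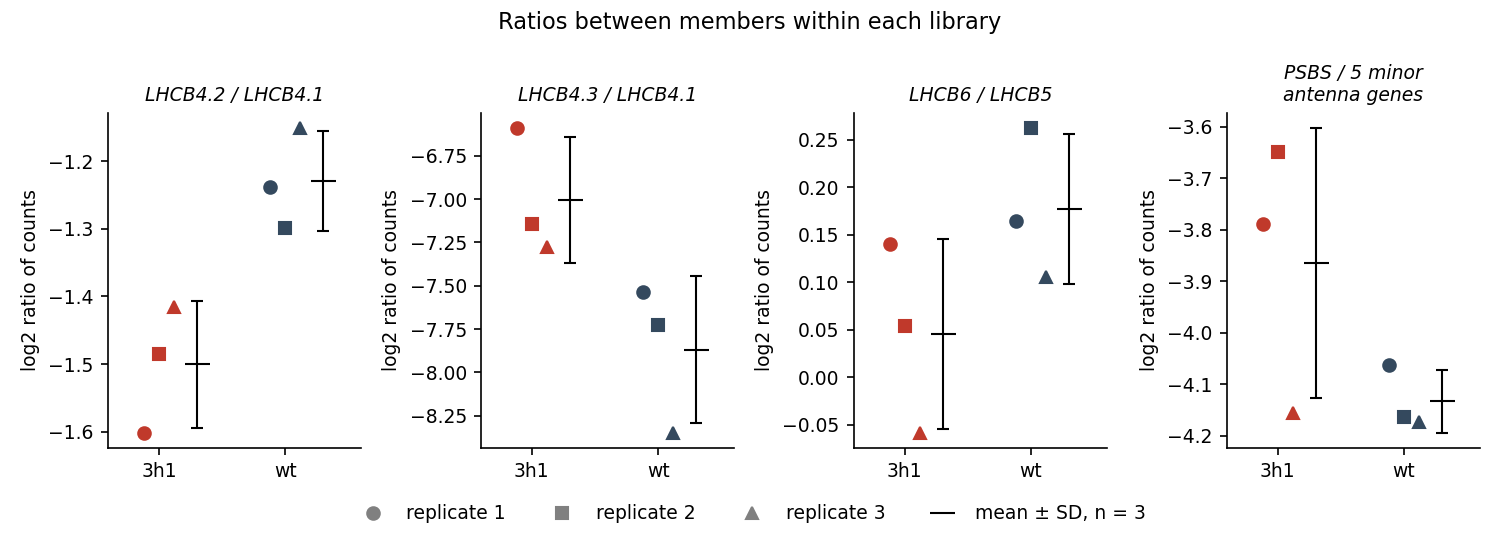
Log2 ratio of counts within each *3h1* (red, left) and wt (blue, right) library for 4 of the ratios compared, with bars for mean ± SD (n = 3 libraries) and axes that do not start at 0. *LHCB4.2* to *LHCB4.1* is lower and *LHCB4.3* to *LHCB4.1* higher in every *3h1* library than in any wt library, and the other ratios overlap.

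Levels were compared between genes only per length of exon, as counts scaled to exon length and to the total count of the library (RPKM). The order was the same in both genotypes, with *LHCB6* highest, then *LHCB5*, *LHCB4.1*, *LHCB4.2*, *PSBS* and *LHCB4.3*. *LHCB6* was at 930 ± 54.8 RPKM in *3h1* and 1141 ± 137 RPKM in wt. *LHCB5* was at 783 ± 76.0 RPKM in *3h1* and 875 ± 107 RPKM in wt, and *LHCB4.1* at 708 ± 65.3 RPKM in *3h1* and 854 ± 92.0 RPKM in wt (SD, n = 3 each), and these neighbours overlapped in both genotypes. *LHCB6* and *LHCB5* overlapped in *3h1* but not in wt. The genotypes themselves overlapped on this scale for *LHCB4.1*, at 781 RPKM in *3h1* replicate 3 and 758 RPKM in wt replicate 3. They also overlapped for *LHCB5*, at 868 RPKM in *3h1* replicate 3 against 804 and 823 RPKM in wt replicates 2 and 3.

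*LHCB4.2* followed at 257 ± 36.9 RPKM in *3h1* and 371 ± 31.9 RPKM in wt, separate from its neighbours in the order. *PSBS* stood at 135 ± 13.3 RPKM in *3h1* and 136 ± 20.9 RPKM in wt on this scale, which takes the whole library as its base. With the shortest annotated transcript as length, *PSBS* came to 198 RPKM in *3h1* and 200 RPKM in wt, below *LHCB4.2* as before. *LHCB4.3* was far below the rest at 5.40 ± 1.31 RPKM in *3h1* and 3.69 ± 1.34 RPKM in wt. Among 26511 genes with a length, *LHCB6* ranked 202 in *3h1* and 162 in wt by RPKM, and *LHCB4.3* ranked 7211 in *3h1* and 8655 in wt.

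CP29 transcripts came mostly from *LHCB4.1*. *LHCB4.1* made up 74.3, 72.9 and 72.0% of the summed RPKM of the 3 paralogs in *3h1*, against 69.5, 70.4 and 68.4% in wt. The share of *LHCB4.2* was 25.0, 26.6 and 27.6% in *3h1*, against 30.1, 29.2 and 31.4% in wt, and that of *LHCB4.3* was below 1% in every library. The shares of *LHCB4.1* and *LHCB4.2* did not overlap between the genotypes. Neither did that of *LHCB4.3*, at 0.448 to 0.743% in *3h1* and 0.202 to 0.361% in wt, which rested on few counts. The summed level was 928, 897 and 1085 RPKM in *3h1* and 1354, 1223 and 1109 RPKM in wt.

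The genes of the LHCII trimers, to which the minor antenna binds, were also lower. Of 7 major LHCII genes in the table, 7 were lower in *3h1* at an unadjusted p value under 0.05, against 4.17% of all genes tested, with a median log2 fold change of -0.74, and 5 to 7 were lower with each library left out (5 without *3h1* replicate 1). With the total count as library size 4 of the 7 were lower, against 0.779% of all genes tested, with a median of -0.52. *LHCB3*, whose product sits in the trimer next to CP24, had 652, 582 and 728 CPM in *3h1*, against 1104, 1059 and 1118 CPM in wt. The log2 fold changes were -0.79 for *LHCB1.1*, -0.81 for *LHCB1.4* and -0.61 for *LHCB1.2*. Only *LHCB2.3* passed the adjusted threshold (log2 fold change -1.15, adjusted p = 0.0418, edgeR's quasi-likelihood test). It lost that call without *3h1* replicate 1 (adjusted p = 0.387) and without wt replicate 1 (adjusted p = 0.317), replicate 2 (adjusted p = 0.182) or replicate 3 (adjusted p = 0.0775). Several of these genes are near-identical copies, so the division of reads among them is uncertain. The summed minor antenna genes were 0.408, 0.464 and 0.354 of the summed major LHCII genes in *3h1*, against 0.364, 0.390 and 0.371 in wt. The genotypes overlapped in this ratio, whose log2 difference was 0.12 (exact permutation test, p = 0.5, adjusted over the 5 ratios p = 0.5). It was 0.020 without *3h1* replicate 2 and 0.22 without *3h1* replicate 3.

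Of the other genes that serve the antenna or protect it, few were past the unadjusted threshold. In photoprotection, which here held the xanthophyll cycle, the kinases and phosphatases of antenna proteins, cyclic electron flow and stress relatives of the antenna, 1 of 15 tested genes was lower at the unadjusted threshold, near the 4.17% of all genes tested, and 0 were higher. It was *ZEP*, the epoxidase that turns zeaxanthin back into violaxanthin, at 58.9, 69.3 and 60.1 CPM in *3h1* and 86.7, 77.0 and 79.6 CPM in wt (log2 fold change -0.37, adjusted p = 0.417, edgeR's quasi-likelihood test). The number lower in photoprotection was 0 without *3h1* replicate 1 or wt replicate 1 and 4 without *3h1* replicate 2, and 1 gene was higher without *3h1* replicate 3, with upper quartile factors or with the nuclear count as library size. With the total count as library size 3 were higher, against 13.1% of all genes tested, and 0 were lower. Among 8 tested genes for antenna pigments, only *CAO*, which makes the chlorophyll b that antenna proteins need, was lower at the unadjusted threshold. *CAO* had 21.8, 26.2 and 22.7 CPM in *3h1*, against 33.7, 29.9 and 41.0 CPM in wt (log2 fold change -0.57, adjusted p = 0.311, edgeR's quasi-likelihood test). The pigment list held 2 such genes without *3h1* replicate 2 or without wt replicate 1. Of the 5 genes for import and insertion of antenna proteins, with the chloroplast signal recognition particle and its receptor and insertase among them, 0 were lower or higher at the unadjusted threshold, and 1 was lower without *3h1* replicate 2. The medians were -0.16 for photoprotection, -0.11 for pigments and -0.084 for import and insertion, beside 0.011 for all genes tested. These 3 medians changed sign with the total count as library size, to 0.061, 0.12 and 0.14, beside 0.23 for all genes, where 0 photoprotection or pigment genes were lower at the unadjusted threshold and 3 photoprotection genes were higher.

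Of the regulators of antenna genes, *GLK2* and *HY5* were tested and *GLK1* was not analysed here. Only *HY5* was lower at the unadjusted threshold, against 4.17% of all genes tested. *GLK2* had 18.5, 22.2 and 32.9 CPM in *3h1* and 24.1, 26.7 and 29.0 CPM in wt, with overlapping genotypes (log2 fold change -0.11, adjusted p = 0.896, edgeR's quasi-likelihood test). *HY5*, a light-signalling factor that binds G-box-like sites, had 4.33, 5.79 and 3.74 CPM in *3h1* and 6.90, 9.97 and 5.28 CPM in wt, and the genotypes overlapped (log2 fold change -0.67, adjusted p = 0.517, edgeR's quasi-likelihood test). *HY5* kept the unadjusted threshold only without *3h1* replicate 2 or wt replicate 3 among the fits with a library left out, had -0.43 without wt replicate 2, and lost the threshold with DESeq2, with upper quartile factors and with the nuclear or the total count as library size. Antenna genes are under the circadian clock, and of 7 clock genes tested, *GI*, *PRR7* and *PRR5* were lower at the unadjusted threshold, against 4.17% of all genes tested, and 0 were higher. *GI* had 89.2, 109 and 98.0 CPM in *3h1* and 125, 131 and 144 CPM in wt (log2 fold change -0.43, adjusted p = 0.372, edgeR's quasi-likelihood test). *PRR7* had a log2 fold change of -0.31 and *PRR5* of -0.36. The number of clock genes lower was 0 without *3h1* replicate 1 or wt replicate 3 and 1 without *3h1* replicate 3, wt replicate 1 or wt replicate 2. It was 0 with the total count as library size, 1 with upper quartile factors or the nuclear count as library size, and 1 of the 9 clock genes that DESeq2 ran on. The part of the clock in the antenna result was not tested.

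**Figure D4:**
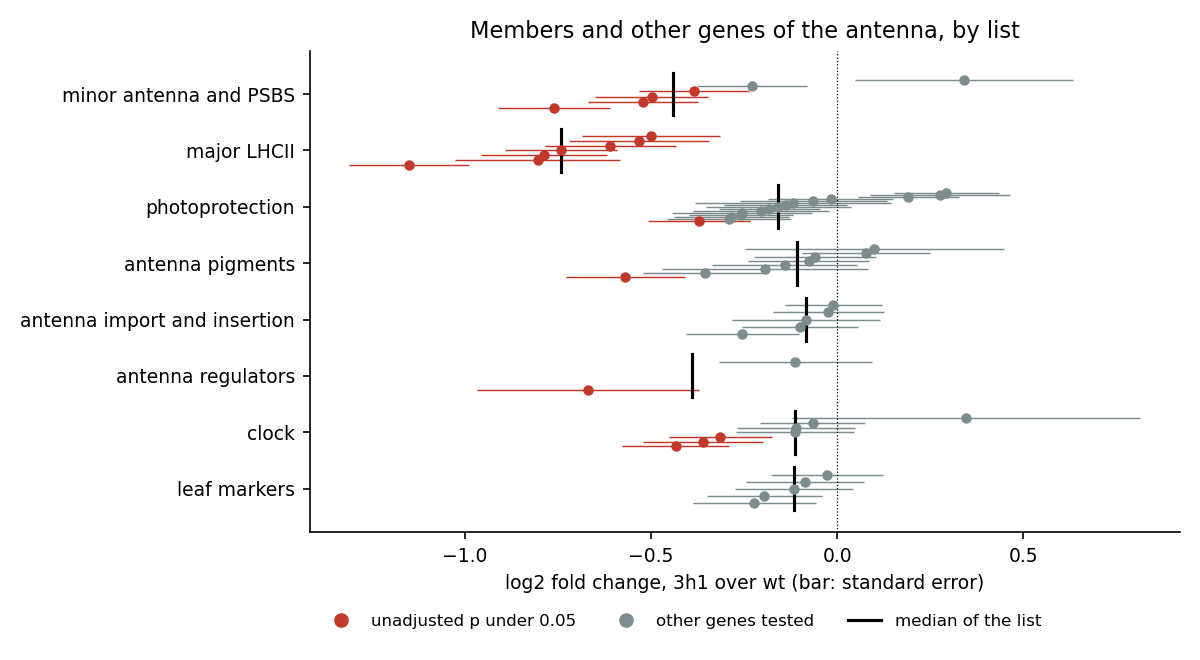
Log2 fold change of *3h1* over wt (horizontal axis, bars for the standard error) for every tested gene of 8 lists, with genes under an unadjusted p value of 0.05 in red and a black line at the median of the list. The minor antenna and PSBS genes have a median of -0.44 and the major LHCII genes of -0.74, whereas the leaf markers have a median of -0.12, which becomes 0.11 with the total count as library size.

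Marker genes of leaf, root, guard cells, flowers and senescence were read beside the members. The 5 leaf markers (*RBCS1A*, *RBCS3B*, *RCA*, *CA1* and *GAPA*) summed to 4520 to 5545 CPM in *3h1* and 5433 to 5562 CPM in wt, with 0 of 5 past the unadjusted threshold and a median log2 fold change of -0.12. Without *3h1* replicate 2, 1 of them was lower at that threshold. Set against the sum of the leaf markers, a description chosen after the values were seen, the log2 difference between *3h1* and wt was -0.37 for *LHCB4.1*, -0.64 for *LHCB4.2*, -0.26 for *LHCB5*, -0.39 for *LHCB6*, -0.10 for *PSBS* and 0.50 for *LHCB4.3*. These values moved by over 1.5 times when a library was left out for *LHCB5* (-0.15 without *3h1* replicate 2 and -0.40 without *3h1* replicate 3), *PSBS* (-0.065 without wt replicate 1 and -0.15 without wt replicate 3) and *LHCB4.3* (0.32 without *3h1* replicate 1 and 0.21 without wt replicate 3). In this ratio *3h1* was below wt in 9 of 9 pairs of libraries for *LHCB4.2* and *LHCB6*, 8 for *LHCB4.1*, 7 for *PSBS*, 6 for *LHCB5* and 2 for *LHCB4.3*. Root markers, 2 of 6 tested, summed to 176 to 241 CPM in *3h1* and 160 to 217 CPM in wt, and guard cell markers, 5 of 5 tested, to 33.5 to 35.6 CPM in *3h1* and 29.8 to 36.6 CPM in wt, with 0 past the unadjusted threshold. Of 5 floral markers only *SEP3* passed the filter on low counts. It had 26, 19 and 29 counts in *3h1* and 5, 9 and 4 counts in wt (log2 fold change 1.66, adjusted p = 0.311, edgeR's quasi-likelihood test). The floral markers summed to 4.86 to 10.6 CPM in *3h1* and 2.23 to 4.49 CPM in wt, a narrow gap that rested on few counts. Of the genes below the filter, *AP3*, *PI* and *AG* had higher means in *3h1*. *AP1* did not, with means of 1.04 CPM in *3h1* and 1.07 CPM in wt. The part of the floral markers in the antenna result was not tested. Of the senescence markers 1 of 3 in the table was tested, with 0 past the unadjusted threshold. They summed to 3.36 to 4.23 CPM in *3h1* and 2.44 to 3.13 CPM in wt, which rested on few counts. *SAG13* and *SAG29*, below the filter, had higher means in *3h1*. *ORE1*, the tested gene, did not, with means of 1.74 CPM in *3h1* and 1.85 CPM in wt. The part of the senescence markers in the antenna result was not tested.

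The genes whose pattern over the 6 libraries was most like the mean pattern of the 6 members were sought among 1347 other genes with a mean of at least 50 CPM, by the root mean square difference of centred log2 CPM. Each member weighed equally in the mean pattern, including the rare *LHCB4.3*, which had 3.65 CPM in wt replicate 3. The mean pattern stood at 0.24, 0.27 and 0.0056 in wt replicates 1, 2 and 3. The median difference over the 1347 genes was 0.231. The closest were *GSR 1* (AT5G37600), a cytosolic glutamine synthetase, at 0.04997, the ribosomal protein gene AT3G09200 at 0.0509, and 3 photosystem genes, *PSAF* at 0.0549, *PSBY* at 0.0598 and *PSAL* at 0.0645. *PSAF*, a subunit of photosystem I, had 349, 340 and 344 CPM in *3h1* and 455, 498 and 425 CPM in wt. The log2 fold changes were -0.30 for *GSR 1*, -0.37 for AT3G09200, -0.42 for *PSAF*, -0.43 for *PSBY* and -0.40 for *PSAL*. Because these genes were picked by their likeness to the members, a lower level in *3h1* follows from the choice. The points are 6 libraries of 2 genotypes, and the likeness is a description.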

How the data were processed

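RNA from pooled 3-week-old seedlings, 3 biological replicates per genotype, was depleted of ribosomal RNA and sequenced on an Ion Proton instrument. The authors filtered residual ribosomal and ERCC reads, mapped the rest to TAIR10 with TMAP and BBMap, and deposited expected counts per ARAPORT11 gene from the expectation-maximization step of Partek Flow, before normalization. A deposited table of the authors' own comparison (ratios, p-values, false discovery rates) was not used. Expected counts were rounded and filtered with filterByExpr, normalized by TMM and tested with the quasi-likelihood test of edgeR 4.0.16 (R 4.3.3, Benjamini-Hochberg, 17453 genes), with DESeq2 1.42.0 and limma voom 3.58.1 as alternatives. The fit was tested on simulated counts. Ratios within libraries were compared by exact permutation tests (scipy 1.17.1). All members, the *H1* genes, the 5 genes most like the members and, of each other list, up to 5 genes with an unadjusted p value under 0.05 were named. RPKM used exon lengths and total counts. Coordinates and sequences come from RefSeq TAIR10.1. Total counts were 4753812 to 6174881 per library, with a median of 29 to 51 for tested genes. Samples were grouped by labelled genotype. No source says that libraries sharing a number were grown together. The members and lists were chosen with earlier results of these data known. *LHCB2.1*, *LHCB2.2*, *GLK1* and *H1.3* were not analysed here.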

Additional observations from a re-analysis of the deposited data

How the results depend on the processing

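Each of the 6 genes kept the direction of its fold change in all 18 alternatives. None of the 6 was called at an adjusted p value under 0.05, except for 1 (*LHCB4.2*) with DESeq2. The number lower at the unadjusted threshold was 3 or 4 in the alternatives other than the total count as library size, where it was 1, and 3 or 4 with each library left out in turn. Over the whole table, 7 genes were called, against 37 with DESeq2, 12 with no filter on low counts, 3 with at least 10 counts in every library, 3 with the replicate block, 11 with the total count as library size and 3 to 96 with each library left out, the 96 without *3h1* replicate 2 and the 3 without wt replicate 1. Genes lower at the unadjusted threshold numbered 727, against 471 with the nuclear count and 136 with the total count as library size, and 522 to 1083 with each library left out. Genes higher numbered 931, against 1547 with no filter, 400 with *3h1* replicate 2 alone, 2281 with the total count as library size and 647 to 1730 with each library left out, the 1730 without *3h1* replicate 2. The fits with the total count and with *3h1* replicate 2 alone were chosen after seeing the data. The causes of these differences were not tested, except that no filter enters more genes. Replicate numbers were not used to pair the samples in the main fit. The deviations of same-numbered libraries correlated at -0.102 on average. This cannot exclude pairing, because the deviations were taken from the mean of only 3 libraries per genotype. With the replicate block, 3 of the 6 genes were lower at the unadjusted threshold, without *LHCB5*. The 5 ratios kept their direction in all 40 alternatives, with no p value under 0.1 possible. RPKM values were higher with the nuclear count as base, at 297 in *3h1* and 334 in wt for *PSBS*. *LHCB4.3* had the lowest counts of the 6 genes, 18 to 61.6, and a standard error of 0.29, beside a median of 0.26 over all genes tested.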
